A study of Homo sapiens with 12 samples.

Results

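RAB GTPases are the small switches that mark the membranes of the secretory and endocytic pathways, and TBC1D proteins are the activators of GTP hydrolysis that turn them off. The genes described here are those whose name in the files starts with RAB and a digit, with TBC1D, RABGAP or RABEP, outside chromosomes 17 and 20. The rule found 67 of 8843 genes: 46 RAB-digit names, 17 TBC1D names, 2 RABGAP names and 2 RABEP names. Another 6 genes with such names lie on chromosomes 17 and 20 and were left out. By role, 39 encode GTPases, 19 encode GTPase-activating proteins (GAPs) with a TBC domain, and 9 encode other RAB regulators or effectors.

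N6-methyladenosine (m6A) was mapped by MeRIP-seq: an anti-m6A antibody enriches methylated RNA fragments, which are then sequenced. The resistant cells were BT474.TtzmR, a trastuzumab-resistant derivative of BT474 (3 pull-down libraries), and the sensitive cells were BT474, an established ERBB2-amplified human breast cancer line (3 pull-down libraries). The labels give no drug dose for either line, do not say whether the resistant line is 1 clone, and do not say whether replicates were separate cultures. The series holds 12 libraries, and the input libraries were not analysed here.

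A RAB protein is loaded with GTP by an exchange factor (GEF), recruits effectors that move, tether or fuse a vesicle, and is returned to the GDP-bound form by a GAP. Escort and GDI proteins carry the lipid-modified GTPase between membranes. In breast epithelium these proteins route receptors such as ERBB2 between the cell surface, recycling endosomes and lysosomes. On mRNA, m6A lies mostly near stop codons and in 3′ UTRs and is known to act on RNA stability and translation.

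Of the 8 luminal marker genes checked, 6 had a peak in all 6 libraries, among them ERBB2, KRT8, KRT18, EPCAM and CDH1. GRB7 was methylated in 3 resistant and 0 sensitive libraries, GATA3 in 2 resistant and 3 sensitive ones. Of 5 markers of other cells, KRT5, KRT14 and PTPRC had no peak, VIM had one in 1 resistant and 1 sensitive library, and COL1A1 had one in all 6. The resistant lists held 30767 to 32638 peaks and the sensitive lists 26028 to 29063. Read depth behind the lists is unknown, so peak numbers may carry a depth difference, and its part in the results was not tested.

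RAB and TBC1D transcripts were methylated in both lines, and more of them carried a peak in resistant cells. A peak was listed for 65 of the 67 genes, and 35 (53.8%) had one in all 6 libraries, against 4670 of 8353 genes (55.9%) overall. The resistant libraries had a peak on 54, 51 and 58 of the genes, and the sensitive libraries on 50, 46 and 47. The groups did not overlap. The means were 54.3 ± 3.51 in resistant and 47.7 ± 2.08 in sensitive libraries (SD, n = 3 each), a difference of 14.0%. Over all genes, means of 6693 ± 157 in resistant and 6220 ± 213 in sensitive libraries (SD, n = 3 each) differed by 7.60%, also without overlap. The RAB and TBC1D genes made up 0.812% ± 0.042 of the methylated genes in resistant and 0.767% ± 0.030 in sensitive libraries (SD, n = 3 each), and here the groups overlapped. With the 26028 peaks of smallest p taken from every library, the difference fell to 1 gene.

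The numbers of GTPases with a peak did not overlap between the lines, while those of GAPs and other regulators did. Over all genes, 6516 to 6816 had a peak in resistant and 5982 to 6391 in sensitive libraries, also without overlap. GTPase genes with a peak numbered 28, 29 and 34 in the resistant libraries and 27, 24 and 22 in the sensitive libraries. GAP genes numbered 17, 15 and 17 in resistant and 15, 15 and 18 in sensitive libraries. The other RAB-named genes numbered 9, 7 and 7 in resistant and 8, 7 and 7 in sensitive libraries. Whether the GTPases differ from the GAPs in this respect was not tested, and with equal numbers of top peaks the GTPase counts of the lines overlapped, with means of 26.3 in resistant and 23.7 in sensitive libraries.

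**Figure D1:**
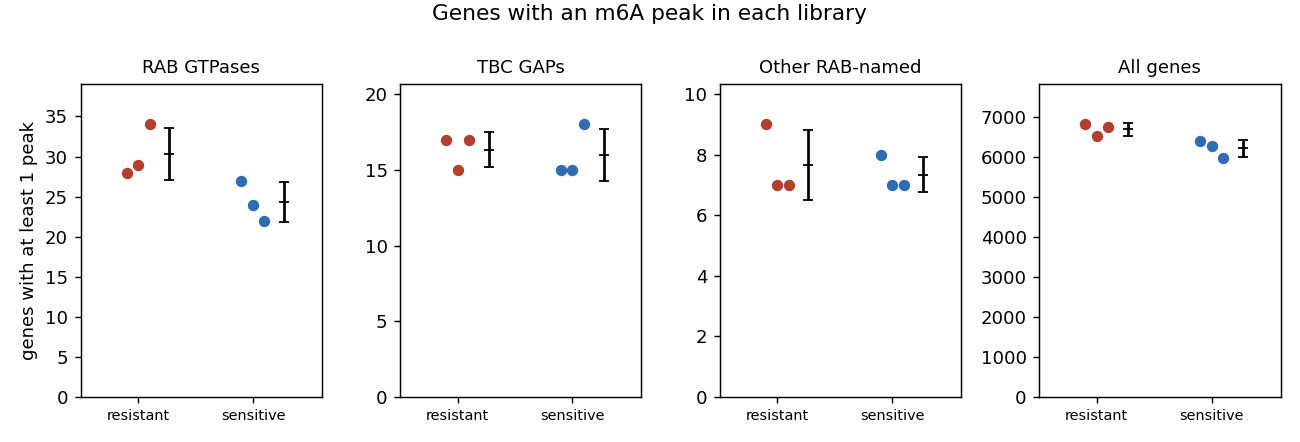
Genes with at least 1 m6A peak (y axis, number of genes) in each library, for RAB GTPases, TBC GAPs, other RAB-named genes and all genes, with resistant libraries on the left; points are libraries and bars are mean ± SD (n = 3). The 28 to 34 GTPase genes of the resistant libraries lie above the 22 to 27 of the sensitive libraries, while GAP counts overlap. Counts over all genes do not overlap between the lines either.

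Counted gene by gene, 20 of the 65 genes (30.8%) had a peak in more resistant than sensitive libraries, against 24.5% of all genes. The opposite held for 7 genes (10.8%), against 13% of all genes, and 38 (58.5%) had equal numbers. A missing peak can come from less of the transcript or from less m6A on it, in fewer cells or in each cell, and these cannot be told apart in peak lists.

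**Figure D2:**
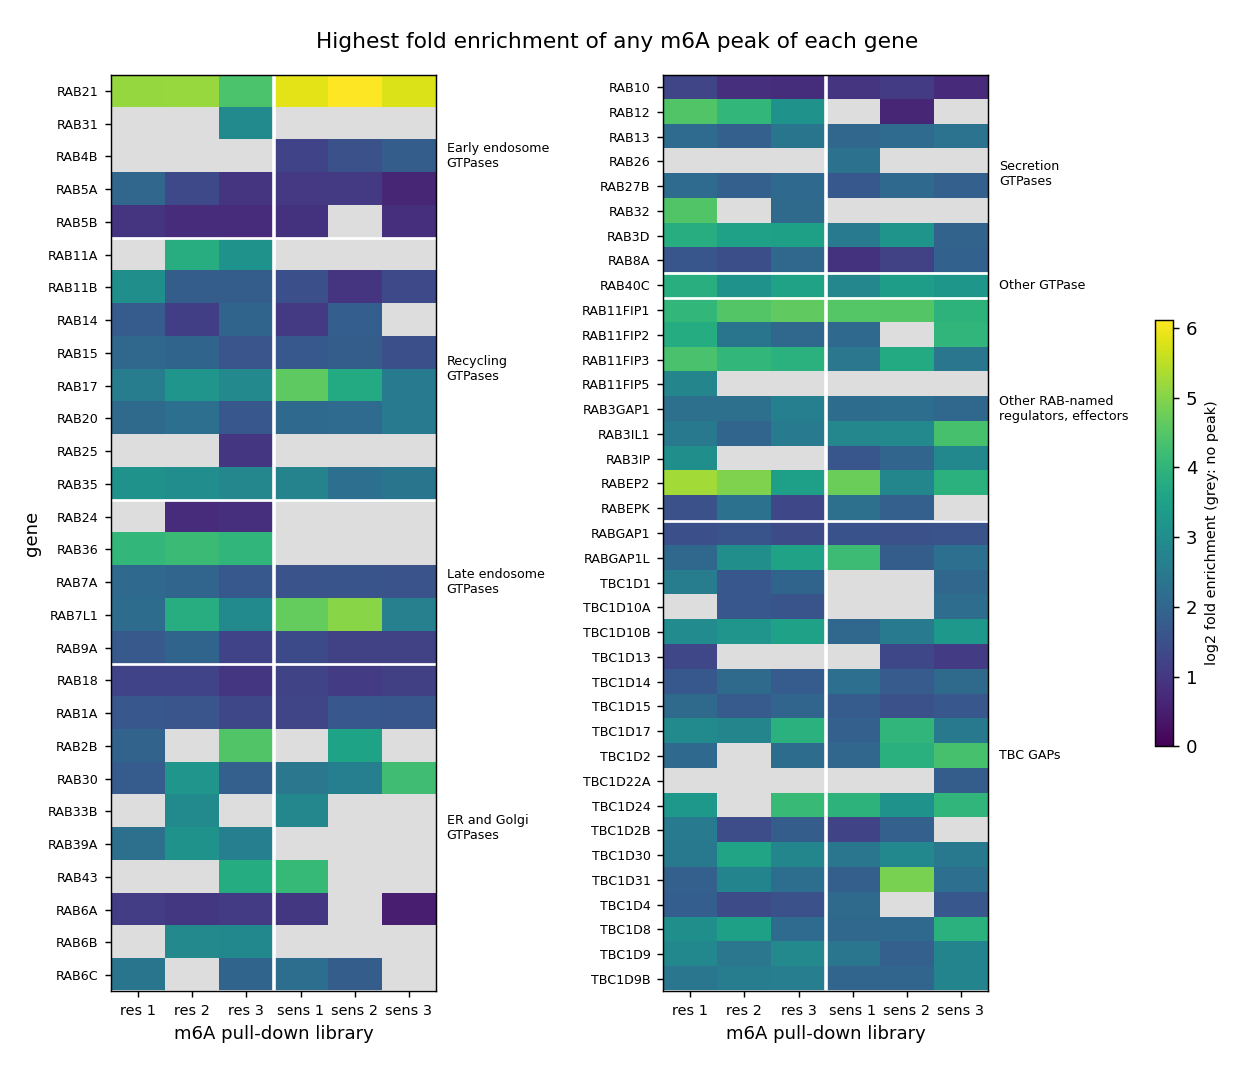
Highest fold enrichment (log2 colour scale) of any m6A peak of each of the 65 genes with a peak, grouped by role, with the 3 resistant libraries left of the 3 sensitive ones in each block; grey marks no peak. RAB36 and RAB39A have colour only in resistant libraries, RAB4B only in sensitive libraries, and RAB21 is brightest in the sensitive ones.

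Peaks in every library of 1 line and none of the other were found on 3 of these genes. RAB36 and RAB39A, 2 of 65 genes (3.08%), were listed with m6A by every resistant library and by none of the sensitive ones, against a background of 1.78% of all genes. RAB4B alone, 1 of 65 (1.54%), had m6A in every sensitive library and in none of the resistant ones, against a background of 0.838%. These shares are near the background and say nothing particular about the family.

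RAB36, a GTPase grouped here with late endosomes and lysosomes, carried m6A in its 3′ UTR on chromosome 22. One stretch, from 23505251 to 23505640, had fold enrichments of 15.2, 18.1 and 16.2 in the resistant libraries. A second, from 23505730 to 23505819, had 16.5 and 15.3 in resistant libraries 1 and 2. No sensitive library listed a peak on the gene. The smallest peak p-values were 2.29e-04, 9.55e-05 and 1.74e-04, so none of the RAB36 peaks passes a limit of 1e-05. The highest RAB36 folds were shared to the last digit with 173, 115 and 140 other genes of the same resistant lists. The gene has no region in the authors' deposited table, so the presence pattern is not backed by a test.

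RAB39A, grouped here with the ER and Golgi GTPases, had 1 stretch around its stop codon (chromosome 11, 107832829 to 107833189). Fold enrichments there were 4.82, 8.84 and 6.19 in the resistant libraries, with peak p-values of 1.62e-04, 7.94e-07 and 1.02e-04. Sensitive libraries had none, and the gene has no region in the authors' deposited table.

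RAB4B, a GTPase of early endosomes and rapid recycling, showed the opposite pattern. Its 3′ UTR (chromosome 19, 41302701 to 41302847) had no peak in the resistant libraries and fold enrichments of 2.34, 2.86 and 3.49 in the sensitive libraries. The authors' deposited table lists the stretch at folds of 0.702 (deposited p = 0.0776) and 0.763 (deposited p = 0.143), neither of them called.

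Weaker presence patterns leaned toward resistant cells, as did the presence of peaks over all genes. Of all genes, 24.5% had a peak in more resistant libraries and 13% in more sensitive libraries. The shares of all genes with the exact patterns below are not given here, so the lean is not read as particular to the family. RAB11A, RAB24, RAB32 and RAB6B carried peaks in 2 resistant and 0 sensitive libraries, RAB12 and TBC1D1 in 3 resistant and 1 sensitive. RAB3IP, the GEF known as Rabin8 that acts on RAB8, was methylated in 1 resistant and 3 sensitive libraries. In the authors' deposited table its 4 rows had folds of 1.73 to 2.03 (smallest deposited p = 0.0550), all uncalled. Over that stretch only resistant library 1 had a peak. All of these 7 genes except RAB11A were chosen for mention after their values were seen.

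Several RAB transcripts had m6A peaks of high listed fold enrichment in every library. Highest fold enrichments, as the authors list them, describe the peaks within each list and were set side by side without a test. The 5 genes with the largest minimum over the 6 libraries were RAB21, RAB11FIP1, RAB40C, RABEP2 and RAB17. Nearly all highest folds of the RAB and TBC1D genes were shared to the last digit with other genes of the same list. This held for 54 of 54 genes in resistant library 1 and 46 of 47 in sensitive library 3. In resistant library 1, the 16.5 of RAB11FIP1 recurred on 173 other genes and the 35.8 of RAB21 on 13. A high fold is therefore not read here as a measure of m6A strength.

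RAB21, an early endosome GTPase known for integrin traffic, stood highest. Its highest fold enrichments were 35.8, 36.3 and 20.9 in the resistant libraries, against 58, 69.5 and 55.4 in the sensitive libraries, with no overlap. Peaks covered 13.2%, 20.9% and 16.5% of its 6180-base transcript in resistant cells and 23.3%, 21.4% and 23.3% in sensitive cells. The compared region runs over 7 blocks from the 5′ UTR to the 3′ UTR (chromosome 12, 72148744 to 72180140, 1531 bases). Its fold in the authors' deposited table, resistant over sensitive, was 0.863 (deposited p = 0.00708), a decrease too small to be called.

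RAB11FIP1, a RAB11 effector of endosomal recycling also known as Rab coupling protein, carried the most regions, 5 after joining isoforms. Its highest fold enrichments were 16.5, 22.3 and 24.8 in the resistant libraries and 22.7, 22.2 and 15.5 in the sensitive libraries, which overlap. Peaks covered 24.6%, 25.4% and 27.7% of its 7811-base transcript in resistant cells and 18.5%, 15.8% and 10.0% in sensitive cells, without overlap.

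RAB40C, a GTPase with a SOCS box that binds cullin ligases, had highest fold enrichments of 14.5, 8.86 and 11.6 in resistant and 7.14, 10.6 and 9.45 in sensitive libraries, and its peaks covered 36.3% to 37.4% of a 2717-base transcript in resistant and 38.5% to 42.9% in sensitive cells. RABEP2, a RAB5 effector, had 38.6, 30.7 and 11 in resistant and 26.9, 7.02 and 14.9 in sensitive libraries. RAB17, a GTPase of epithelial recycling and transcytosis, had 5.97, 9.07 and 7.32 in resistant and 24.1, 13.3 and 5.67 in sensitive libraries. The lines overlapped in fold enrichment for all 3 of these genes.

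The authors compared the lines region by region, and 40 of the 67 genes have a region in their table, in 92 rows with 1 row per transcript isoform. RAB27A and RAB8B are among the 40 although no library listed a peak on them, and 27 genes with a peak have no compared region. To be called, a region needs a deposited p below 0.05 and a fold that reaches 1.5 or, downward, its reciprocal. Whether that p was adjusted is not given in the sources used here.

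All called regions of RAB and TBC1D genes were higher in resistant cells. In the authors' deposited table, 8 of the 40 genes (20%) had a region called higher, against a background of 14.2% of genes. By rows, 10 of 92 (10.9%) were called higher in the authors' deposited table, against a background of 9.88%, which is a share near the background. No gene had a region called lower, against a background of 2.76% of genes and 1.75% of rows in the authors' deposited table. At a deposited p below 0.05 without a fold limit, 39 rows lay above 1 (42.4%, background 38.6%) and 2 lay below 1 (2.17%, background 6.57%), of RAB21 and RAB10.

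The whole table is shifted toward resistant cells. The median fold over all 17301 rows of the authors' deposited table is 1.25, or 0.32 on the log2 scale, and over the 92 rows it is 1.21, or 0.28. Folds above 1 made up 73.9% of the 92 rows and 75.0% of all rows in the authors' deposited table. Relative to that median, 44.6% of the 92 rows and 49.9% of all rows lay above. With every fold divided by the median, none of the 8 genes kept a call. Their called folds were then between 1.20 and 1.48, and a fold of at least 1.5 divided by 1.25 cannot fall below 1. After that division 0 of 40 genes were called higher (background 5.26%) and 0 lower (background 7.35%). After Benjamini-Hochberg adjustment over all rows, 5 of the 8 genes kept their call (12.5% of 40, background 8.84%), and RAB5A, TBC1D10A and TBC1D30 did not. With a fold limit of 2, none did (background 4.09%).

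**Figure D3:**
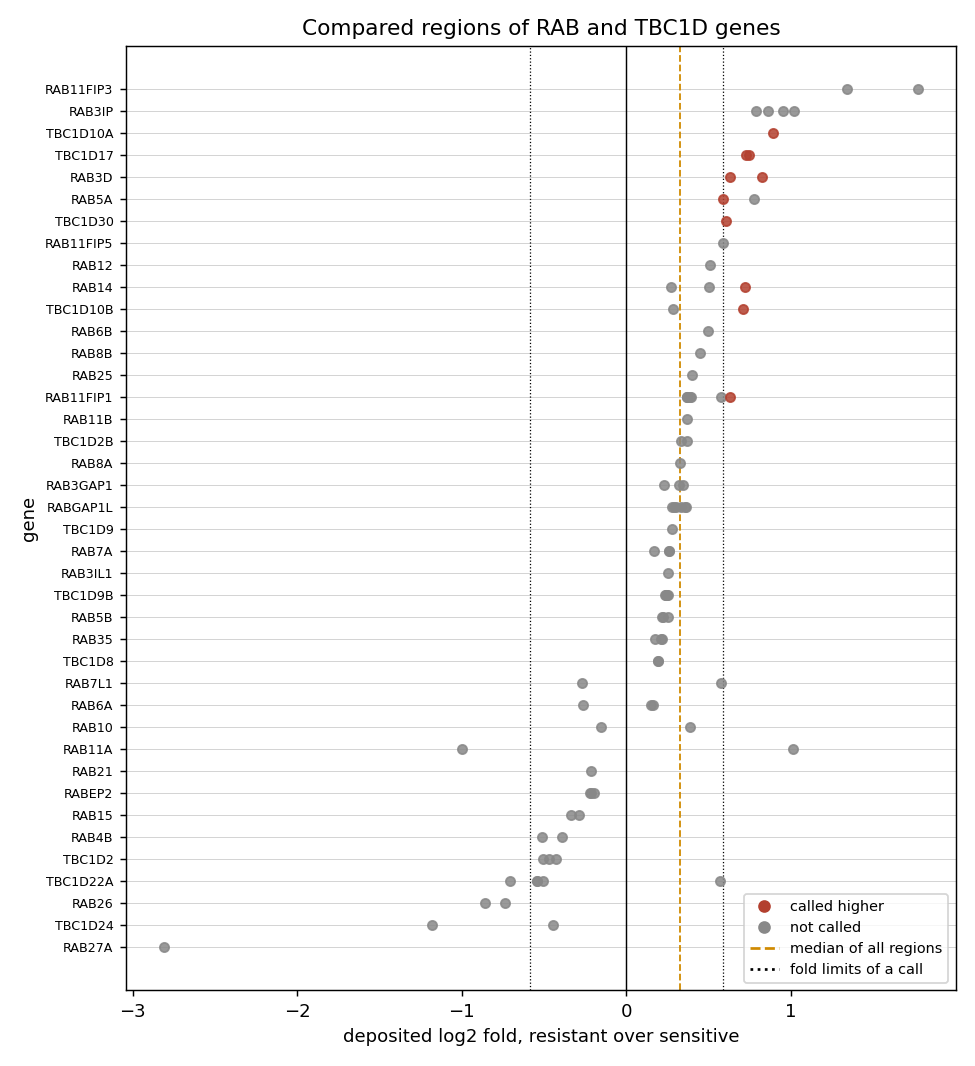
Log2 fold of resistant over sensitive cells (x axis) for each compared row of each gene (y axis), as the authors deposited it; red points are called higher, grey points are not called, the dashed line is the median of all rows and the dotted lines are the fold limits. The dashed line is at 0.32, and the red points, of 8 genes, lie beyond the upper dotted line, as a call requires.

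Among the GTPases, 3 of 21 compared genes were called higher and 0 lower, against backgrounds of 14.2% and 2.76% of genes. The 3 were one each of the early endosome, recycling and secretion groups. RAB3D, a GTPase of regulated secretion, had the smallest deposited p of the called rows and 2 called stretches in its 3′ UTR on chromosome 19. Over the first, from 11433529 to 11433857, fold enrichments were 14.0, 11.3 and 10.1 in the resistant libraries and 5.76, 8.94 and 3.87 in the sensitive libraries. All 3 resistant values lay above all 3 sensitive values, and the authors' deposited table gives a fold of 1.55 (deposited p = 1.95e-04). Over the second, from 11433977 to 11434216, resistant libraries had 14.0, 8.72 and 11.2, and of the sensitive libraries only the second had a peak, at 7.39. The authors' deposited table gives 1.77 there (deposited p = 0.00933). In resistant library 1 the 14.0 of both stretches comes from the same peak, which runs from 11433558 to 11434216.

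RAB14, which works between the Golgi and recycling endosomes, was called over the junction of 5′ UTR and coding sequence (chromosome 9, 123955679 to 123985262, 148 exonic bases). Fold enrichments were 3.42, 2.21 and 3.91 in the resistant libraries, and 2.04 and 3.57 in sensitive libraries 1 and 2 with no peak in the third. The values of the lines overlap. The authors' deposited table gives this row a fold of 1.65 (deposited p = 0.00661), and an overlapping row of another isoform stood at 1.42 (deposited p = 0.00105), under the fold limit.

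RAB5A, the GTPase that drives early endosome fusion, was called in its 5′ UTR (chromosome 3, 19988660 to 19988929). Fold enrichments there were 4.07 and 2.54 in resistant libraries 1 and 2, and no other library had a peak. Its fold of 1.5 in the authors' deposited table (deposited p = 0.0214) sits at the limit. Around the RAB5A stop codon, peaks were seen in the other 4 libraries too, with highest fold enrichments of 1.90 in resistant library 3 and 2.01, 2.07 and 1.58 in the sensitive libraries.

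The other GTPase groups had no call: the late endosome group had 5 genes with a peak and 2 compared, and the ER and Golgi group 10 with a peak and 2 compared. RAB7A, the GTPase of late endosomes and lysosomes, had the smallest deposited p of all 67 genes without reaching the fold limit. Its highest fold enrichments were 4.29, 3.99 and 3.24 in the resistant libraries and 2.94, 3.03 and 2.97 in the sensitive libraries, without overlap. The 3 rows over its stop codon and 3′ UTR (chromosome 3, 128532249 to 128532806) had folds of 1.12 to 1.20 in the authors' deposited table (smallest deposited p = 5.01e-12), below the median of all rows. Its best peaks had p-values between 1e-152 and 1e-120 in the resistant libraries and between 1e-109 and 3.98e-91 in the sensitive libraries. The RAB7A peak had the smallest peak p of the set in all 3 resistant libraries and in sensitive library 2, and RAB13, a tight junction GTPase, had it in the other sensitive libraries.

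RAB11A, the main recycling endosome GTPase, had a 3′ UTR peak (chromosome 15) in resistant libraries 2 and 3, at 14.0 and 8.70, and none in sensitive libraries. RAB11A shared these folds with 175 and 82 other genes of the same lists and had peak p-values of 0.00105 and 4.07e-04. Its 2 compared stretches had folds of 2.01 (deposited p = 0.0813) and 0.5 (deposited p = 0.169) in the authors' deposited table. RAB25, the epithelial relative of RAB11A, had a peak only in resistant library 3, at 1.97, and a fold of 1.32 in the authors' deposited table (deposited p = 0.0186). RAB27A, which docks secretory granules and exosomes, had no peak, and its only compared row has a fold of 0.143 with a deposited p of 0.378 in the authors' deposited table. None of these was called.

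Among the GAPs, 4 of 12 compared genes were called higher and 0 lower, against backgrounds of 14.2% and 2.76% of genes. Whether the GAPs differ from other genes in this count was not tested. TBC1D17, a GAP linked to RAB8 and autophagy, was called in both of its rows over the stop codon (chromosome 19, 50391702 to 50392000). Fold enrichments were 7.58, 6.88 and 9.80 in the resistant libraries and 3.68, 6.10 and 5.55 in the sensitive libraries, without overlap. The folds were 1.67 (deposited p = 0.00309) and 1.66 (deposited p = 0.00372) in the authors' deposited table. Peaks covered 11.4% to 12.7% of its 2366-base transcript in resistant cells and 6.34% to 8.88% in sensitive cells.

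TBC1D10B, an EPI64-family GAP, was called in a stretch that a 1031-base isoform places in the 3′ UTR (chromosome 16, 30369415 to 30369709). The best peak of resistant library 2, from 30369290 to 30369649, overlaps this stretch and is listed as coding sequence for its own isoform. Fold enrichments were 7.74, 9.07 and 11.4 in the resistant libraries and 4.13, 5.65 and 9.66 in the sensitive libraries, with overlap through sensitive library 3. The authors' deposited table gives a fold of 1.64 (deposited p = 0.0120), and 1.22 for a longer row of another isoform that contains the stretch. TBC1D10A, the EPI64 GAP that acts on RAB27A, was called in coding sequence (chromosome 22, 30688529 to 30688677). It had peaks of 3.14 and 3.02 in resistant libraries 2 and 3 and of 4.59 in sensitive library 3. The sensitive peak overlapped the called stretch but shared no base with the resistant peaks, which lay from 30688588 to 30688672. The fold was 1.85 in the authors' deposited table (deposited p = 0.0309), the largest of the called folds in these genes.

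TBC1D30, a GAP for RAB8 in primary cilium formation, was called over coding sequence in 2 blocks (chromosome 12, 65174649 to 65179661, 419 exonic bases). Fold enrichments were 5.17, 11.9 and 6.96 in the resistant libraries, against 5.26 and 3.59 in sensitive libraries 1 and 2 and no peak in the third. The fold was 1.52 in the authors' deposited table (deposited p = 0.0269). Elsewhere in its transcript, a stretch from 65272265 to 65272415 had peaks in the 3 sensitive libraries only, at 4.81, 2.56 and 2.55.

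GAPs without a call included TBC1D4, the AKT-regulated GAP of glucose transporter vesicles also called AS160. Its stop codon peak (chromosome 13) had fold enrichments of 3.57, 2.66 and 2.85 in the resistant libraries, and 4.32 and 3.18 in sensitive libraries 1 and 3, and the gene has no compared region. TBC1D22A had the uncalled row closest to the lower fold limit, 0.685 in the authors' deposited table (deposited p = 0.163). TBC1D24, a synaptic vesicle protein in neurons with 4 joined regions, had a stretch on chromosome 16 (2554478 to 2554599) with no peak in resistant cells and peaks of 15.6 and 16.2 in sensitive libraries 1 and 3. TBC1D7, a subunit of the TSC complex, is not among the genes of the tables used here.

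Of the 7 other RAB regulators and effectors compared, 1 was called higher and 0 lower, against backgrounds of 14.2% and 2.76% of genes. RAB11FIP1 had a called row over its stop codon (chromosome 8, 37720148 to 37720447). Fold enrichments there were 3.29, 3.23 and 3.52 in the resistant libraries, and of the sensitive libraries only the first had a peak, at 2.31. The fold was 1.54 in the authors' deposited table (deposited p = 0.00339), and rows of other isoforms over the same stretch stood at 1.49 and 1.31, uncalled. RAB11FIP3, a RAB11 effector in cytokinesis, had the largest folds of all 92 rows, 3.41 and 2.53 in the authors' deposited table, but its smallest deposited p was 0.0501. Its stretch at the start of the coding sequence (chromosome 16, 475798 to 476096) had peaks of 20.7, 16.7 and 15.1 in the resistant libraries and 13.3 in sensitive library 2 only. RAB11FIP5, another RAB11 effector, had the uncalled row closest to the upper limit, which in the authors' deposited table had a fold of 1.5 (deposited p = 0.155), with no peak over it.

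**Figure D4:**
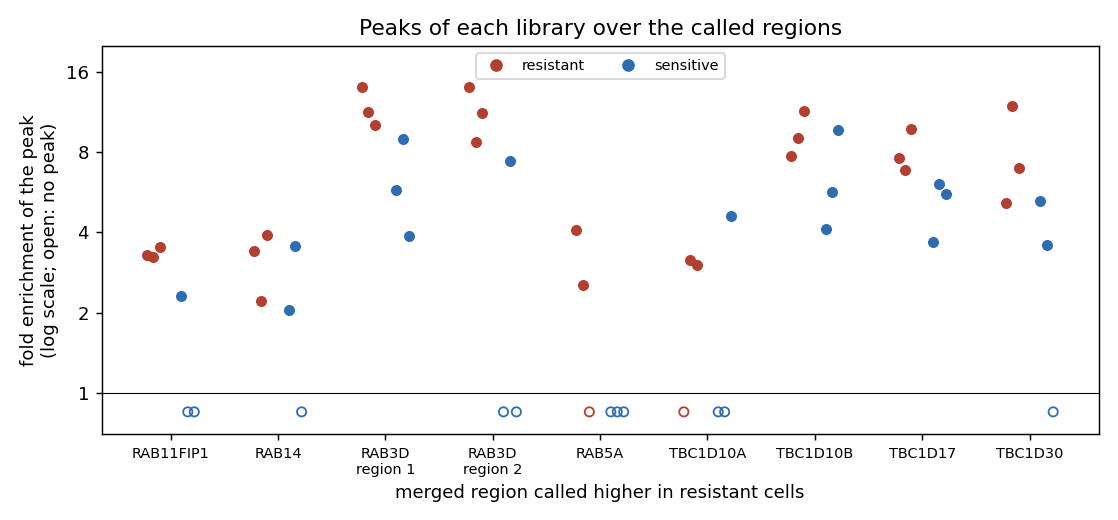
Fold enrichment of the highest peak (y axis, log scale) in each library over the 9 joined regions called higher, with resistant libraries (red) left of sensitive ones (blue); open circles mark libraries with no peak. RAB11FIP1, both RAB3D regions and TBC1D17 show every listed resistant value above every listed sensitive value, and RAB5A has peaks in 2 resistant libraries only. RAB11FIP1 and the second RAB3D region have a peak in only 1 sensitive library each. The regions are shown because they were called higher, so this order is not separate support for the calls. In resistant library 1 the same peak spans both RAB3D regions.

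Genes that act around the RAB cycle but carry other names were listed beside these. Of 100 such genes listed, 67 had a peak and 51 were compared; 5 were called higher and 0 lower in the authors' deposited table. The backgrounds are 14.2% of genes called higher and 2.76% called lower, so these counts show nothing particular to the 51 genes. Among 25 compared effectors, ACAP2, a RAB35 effector and ARF6 GAP, had a 3′ UTR fold of 2.30 in the authors' deposited table (deposited p = 0.0347). It had peaks of 14.0 and 15.1 in resistant libraries 2 and 3 and none in sensitive cells. The same values were listed for RAB11A in resistant library 2 and for RAB11FIP3 in resistant library 3. ERC1, an effector of RAB6 at exocytosis sites, stood at 1.53 in the authors' deposited table (deposited p = 0.0398), with peaks of 5.51, 4.58 and 13.9 in the resistant libraries and none in the sensitive ones. Among 18 compared GEFs, SBF1, a DENN-domain protein, was called in its 3′ UTR at 1.97 (deposited p = 0.00148) in the authors' deposited table.

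Among 6 compared genes of lipid modification, escort and GDI function, YIPF2 and YIPF1, Golgi membrane proteins of a RAB-binding family, were called in their 3′ UTRs at 1.61 (deposited p = 0.00269) and 1.52 (deposited p = 0.00363) in the authors' deposited table. No further TBC-domain GAP was called among 2 compared. The median fold of the 154 rows of these 100 genes was 1.21 in the authors' deposited table, equal to the median of the RAB and TBC1D genes at this precision. After division by the median of all rows, 2 of the 51 genes were called higher (background 5.26%) and 1 lower (background 7.35%).

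GTPase and GAP transcripts carried their m6A at different places. On GTPase transcripts, peaks within the 3′ UTR made up 46.8% ± 4.65 of listed peaks in resistant and 46.6% ± 4.94 in sensitive libraries (SD, n = 3 each), and those within coding sequence 15% ± 3.51 in resistant and 19.6% ± 1.94 in sensitive libraries. On GAP transcripts the order was the reverse, with 21.6% ± 4.75 in resistant and 29.8% ± 0.964 in sensitive libraries in the 3′ UTR (SD, n = 3 each), and 45.8% ± 2.48 in resistant and 44.4% ± 5.10 in sensitive libraries in coding sequence. In each of the 6 libraries the GTPase 3′ UTR share was above the GAP share. Over all genes, the 3′ UTR held 27.9% ± 0.436 of peaks in resistant and 28.5% ± 0.264 in sensitive libraries, and coding sequence 45.9% ± 0.465 in resistant and 46.1% ± 0.181 in sensitive libraries (SD, n = 3 each). The shares count 1 row per isoform and take no account of the lengths of UTRs and coding sequences, whose part in the difference was not tested.

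Between the lines, the 3′ UTR share of GAP peaks was 16.7% to 26.2% in resistant and 28.9% to 30.9% in sensitive libraries, without overlap, while the GTPase share overlapped. Peaks wholly within the 5′ UTR made up 3.19% to 6.10% of GTPase peaks in resistant and 0% to 1.41% in sensitive libraries, also without overlap. These shares rest on 4, 5 and 3 listed peaks in the resistant libraries and 1, 1 and 0 in the sensitive libraries. Over all genes the 5′ UTR share was 2.76% to 3.01% in resistant and 2.59% to 2.79% in sensitive libraries, with overlap. No GAP had a peak that touched the 5′ UTR in any library.

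**Figure D5:**
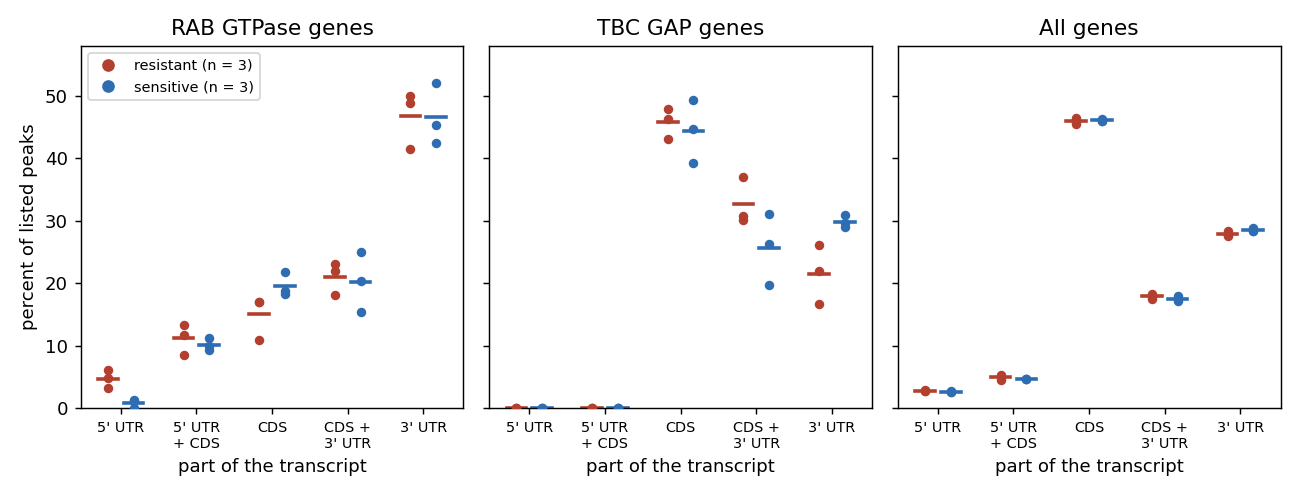
Percent of listed peaks (y axis) in each part of the transcript (x axis; CDS, coding sequence) for RAB GTPases, TBC GAPs and all genes; points are libraries, resistant left of sensitive, and lines are means (n = 3). GTPase peaks are most often in the 3′ UTR, at 46.8% in resistant and 46.6% in sensitive libraries, and GAP peaks in coding sequence, at 45.8% in resistant and 44.4% in sensitive libraries.

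Counted by gene over all RAB and TBC1D names, a peak that touched the 5′ UTR, wholly or in part, was found on 12, 9 and 11 of the genes in the resistant libraries and on 8, 8 and 5 in the sensitive libraries. That was 19.6% ± 2.36 of the RAB and TBC1D genes with a peak in resistant and 14.7% ± 3.57 in sensitive libraries (SD, n = 3 each), against 16.8% ± 1.43 of all genes in resistant and 15.1% ± 0.448 in sensitive libraries. RAB12, a GTPase linked to degradation of the transferrin receptor, had such a peak in 3 resistant and 0 sensitive libraries. RAB10, an exocytic GTPase, and RAB5A had one in 2 resistant and 0 sensitive libraries, and RAB32, which serves lysosome-related organelles, in 1 resistant and 0 sensitive. For RAB11FIP3 it was 3 resistant libraries and 1 sensitive one, and for RAB14 it was 3 resistant and 2 sensitive libraries. The remaining 7 genes had it in equal numbers of resistant and sensitive libraries, and none had it in more sensitive ones. The same split over all genes is not given here. All genes with such a peak also numbered more in resistant libraries, at 1124 ± 121, than in sensitive libraries, at 940 ± 58.5 (SD, n = 3 each). The lean is therefore not read as particular to RAB and TBC1D genes.

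At RAB12 the 5′ UTR stretch (chromosome 18, 8609532 to 8609710) had fold enrichments of 22, 16.7 and 8.70 in the resistant libraries and no peak in the sensitive ones. Its only compared row lies elsewhere, in the 3′ UTR, so the authors' deposited table holds no fold for this stretch. RAB10 had its 5′ stretch (chromosome 2, 26257069 to 26257548) at 2.44 and 1.73 in resistant libraries 1 and 3. In the authors' deposited table that stretch had a fold of 1.31 (deposited p = 0.00339), while the RAB10 coding region had 0.898 (deposited p = 0.00832), neither called. RAB12 and RAB10 were singled out after their values were seen.

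Region by region, most m6A sites on these genes were shared between the lines. Of 77 joined regions found in at least 2 of 3 resistant libraries, 22 (28.6%, 95% Clopper-Pearson interval 18.8% to 40.0%) overlapped none of the regions found in at least 2 sensitive libraries, against a background of 24.4% over all genes. Of 68 sensitive regions, 11 (16.2%, interval 8.36% to 27.1%) overlapped none of the resistant ones, against a background of 12.2%. Several regions on both sides still had a peak in 1 library of the other line. Examples are RAB11FIP3, with a peak of 13.3 in sensitive library 2, and RAB15, with 2.04 in resistant library 3. The intervals cover counting error only. They treat regions as independent, although some lie on the same gene, as with RAB36 and RAB7L1, and leave out the spread between libraries. Whether the shares differ from the background was not tested. Without sensitive library 1 the resistant share was 41.6%, and without resistant library 1 the sensitive share was 27.9%.

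RAB7L1, now named RAB29, a GTPase at the trans-Golgi network and lysosomes, held 2 of the 11 sensitive regions, both in its 3′ UTR on chromosome 1. The stretch from 205737679 to 205737947 had no peak in resistant cells and fold enrichments of 25.5 and 32.5 in sensitive libraries 1 and 2. That from 205738244 to 205738393 had none in resistant cells and 2.43, 2.25 and 2.79 in the 3 sensitive libraries. Peaks covered 3.64%, 5.50% and 4.55% of its 3272-base transcript in resistant cells and 20.1%, 11.9% and 11% in sensitive cells, without overlap. RAB7L1 was also the only gene of the set that, with a stricter peak limit of 1e-05, kept peaks in every sensitive library and lost them in every resistant one. In the authors' deposited table its 2 rows, within 205738185 to 205738809, stood at 0.829 and 1.49, neither called. Only the row at 0.829 spans the stretch from 205738244 to 205738393. The stretch from 205737679 to 205737947 has no fold in the authors' deposited table. The gene was chosen for mention after its values were seen.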

How the data were processed

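Peak lists of the 6 pull-down libraries and the authors' comparison tables were used. The sample titles gave the line and replicate number of each library, and the lists named s1 to s3 were matched by letter and number to the sensitive titles. Per the submitters' processing notes, HISAT2 was used. Not given in the sources used here are the genome build, the peak caller, the comparison tool and how replicates entered it. Per the file headers, the authors deposited for each peak a fold enrichment, which is a ratio, and a p-value. For each compared region they deposited a linear fold of resistant over sensitive cells and its p-value, again per the file headers. The tables hold no value per library, so the count model the design allowed for was not run. Calls use a deposited p below 0.05 with a fold that reaches 1.5 or its reciprocal.

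Rows of isoforms sharing at least 1 exonic base on a strand were joined into regions (Python 3.11.15, pandas 2.3.3, numpy 2.4.6, scipy 1.17.1, matplotlib 3.10.9). Coverage is the percent of a transcript's bases under its peaks, for 1 isoform per gene, the one listed in most libraries and, among those, the longest. Positions count from 1. The region and interval code was tested on simulated data. Since no reads were analysed, RAB6C and other genes close in sequence to a relative (RAB6A) may share reads. Replicates may be technical, as nothing says they were separate cultures.

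The members and gene lists were chosen with earlier results of these data known. Named are: genes with a called region; genes methylated in every library of 1 line and none of the other; the 5 with the largest minimum of highest fold; the uncalled row nearest each fold limit; the 5 with most joined regions; RAB36, RAB7A, RAB5A, RAB11A, RAB27A, RAB25, TBC1D4 and TBC1D7; and up to 4 called genes per list of RAB-cycle genes. Alternatives were the adjusted p, division by the median fold, a fold limit of 2, a stricter peak p, a fold enrichment of at least 5, equal numbers of top peaks, other overlap rules and leaving out each library.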

Additional observations from a re-analysis of the deposited data

How the results depend on the processing

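The count of 8 genes called higher became 5 with Benjamini-Hochberg adjustment over all rows, 0 with folds divided by the median fold and 0 with a fold limit of 2. The 10 called rows became 0 under each of the last 2 settings; their folds reach at most 1.85, and 1.48 after the division. All 8 genes had peaks in at least 2 of 3 resistant libraries over the called region, as had 637 of the 790 genes called higher in the whole comparison. The difference in genes with a peak, 6.67 in the lists as deposited, was 1 with equal numbers of top peaks, 4 at a peak p below 1e-05 and 7.33 at a fold enrichment of at least 5; the cause was not tested. Leaving out 1 library at a time gave 4.83 to 8.33. Genes methylated in every resistant library and none of the sensitive ones numbered 0 at a peak p below 1e-05 and 2 to 5 with 1 library left out, where 5 came without resistant library 1 (RAB11A, RAB24, RAB36, RAB39A and RAB6B). The opposite count was 0 with equal numbers of top peaks and 1 to 2 with 1 library left out, where RAB3IP was added without resistant library 1. The 3′ UTR share of peaks, resistant minus sensitive, was -2.35 percentage points, -4.43 with equal numbers of top peaks, -0.859 at a peak p below 1e-05 and -2.95 to -1.33 with 1 library left out. The resistant regions that overlap none of the sensitive ones were 20.6% to 41.6% and the sensitive ones 11.8% to 27.9% with 1 library left out. Among peaks whose fold enrichment reached 5, a setting that for these results was chosen after seeing the data, the 3′ UTR difference was -12.6 points, 0 genes had peaks in every sensitive and no resistant library, and 45.2% of resistant regions overlapped no sensitive one; the cause was not tested. No paired analysis was possible because the deposited comparison holds no value per library, and counts over the chosen genes are given per library with no test. Depth is unknown, so a missing peak says only that none was listed.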

Other observations

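In the authors' deposited table, 4 of the 8 genes called higher had isoform rows over the same RNA with and without a call. Of 48 joined regions of RAB and TBC1D genes in the table, 24 held several isoform rows, and 5 of those had a called row. In 4 of the 5 (80.0%) another row over the same RNA was not called, those of RAB11FIP1, RAB14, RAB5A and TBC1D10B. Over all genes the share was 290 of 612 regions (47.4%). RAB7L1 was the only region of the 24 with rows on both sides of a fold of 1 (4.17%), against 1.10% over all genes.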
